A study of Mus musculus with 10 samples.

Results

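The rRNA fragments described here are the reads counted on 249 of the 6968 rows of a small RNA count table, all rows that the table types as rRNA. Small RNA was sequenced from CD43- splenic B-cells of wt mice, of 3′RR-deficient mice, in which the regulatory region downstream of the heavy chain genes (IgH) is deleted, and of Eμ-deficient mice, which lack the intronic IgH enhancer. Per the study's methods the mice were young adults of both sexes, the wt mice were 129 mice and both deficient lines were on a 129 background. Per the sample labels each library came from the pooled cells of 2 mice, so that the replicates were pools rather than animals. The labels state that cells were kept for 2 days in growth medium, either without stimulus (NS) or with 5 µg/ml of lipopolysaccharide (LPS), a bacterial product that activates B-cells. There were 2 libraries for each of wt NS, wt LPS, 3′RR-deficient NS and 3′RR-deficient LPS, and 1 each for Eμ-deficient NS and Eμ-deficient LPS, 10 in all. Nothing in the labels says that the pools came from separate litters or cultures, so p-values measure only the spread between these libraries.

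Ribosomes are built on 4 rRNAs. The 18S, 5.8S and 28S rRNAs are cut from 1 long precursor made by RNA polymerase I, whereas the 5S rRNA is made by RNA polymerase III from a tandem array of short genes and has many dispersed pseudogene copies in mammalian genomes. B-cells that respond to LPS grow and divide, and ribosome production is known to increase in growing cells. In a small RNA library rRNA appears as short fragments, and their number need not follow the amount of whole rRNA. The size selected here, between 140 and 160 nt, was that of the amplified library and not of the RNA fragments.

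The longest of the 249 rows was 148 nt, so that the rows covered the 5S and 5.8S rRNAs and not the 18S or 28S rRNA. Each row was assigned to the family whose sequence it matched better, which gave 247 rows of the 5S family and 2 of the 5.8S family. All 249 lay at the position that GENCODE M21 (GRCm38) gives for the same transcript. Of the 5S rows, 44 stood in the array on chromosome 8, from 123538786 to 123618654 within an intron of Gm20388 on the opposite strand, and 203 were dispersed. The array is where functional 5S genes reside, and 28 of its rows had the identical 119 nt sequence, which no row outside the array had. Of all 249 rows, 137 lay in an intron of another gene, 16 overlapped an exon of another gene and 96 overlapped no other gene. Many rows typed rRNA were far from functional sequence, as 94 of the dispersed 5S rows matched the array copy in under 70% of its 119 bases.

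Of the leading 5S-like rows, n-R5s162 lies at chr6:60250792-60250910 on the plus strand outside other genes, n-R5s209 at chr1:26959103-26959221 on the minus strand outside other genes, n-R5s2 at chrX:6106891-6107009 on the plus strand outside other genes, and n-R5s33 at chr16:33001903-33002021 on the plus strand in an intron of Lrch3, all in GRCm38. Over its 119 bases, n-R5s162 differed from the array copy at 12 positions, n-R5s209 at 11, and n-R5s2 and n-R5s33 at 4 each. The 5.8S-like row Gm24601 lies at chr6:94826781-94826923 on the minus strand outside other genes. Its sequence is shown because it held the second most rRNA counts, as annotated in GENCODE M21 (GRCm38), written as DNA from 5′ to 3′ with no capitals.
Gm24601: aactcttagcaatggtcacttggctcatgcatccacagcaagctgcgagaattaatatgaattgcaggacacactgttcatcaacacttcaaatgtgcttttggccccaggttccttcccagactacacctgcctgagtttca

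The rRNA rows took a small share of every library, and 2 libraries stood far above the rest. Library totals ran from 3482540 to 18144016 counts. Of these, rRNA rows had between 885 and 12081 counts per library, which were 0.0401% of all counts over the 10 libraries together. Both of the high libraries were second NS replicates, one wt and one 3′RR-deficient, and they were also the shallowest libraries, with 3482540 and 3756662 counts.
In wt cells the rRNA share was 0.00876% (Wilson 95% interval 0.00830 to 0.00924) and 0.347% (0.341 to 0.353) in the NS libraries, and 0.0423% and 0.0195% in the LPS libraries. In 3′RR-deficient cells it was 0.00743% (0.00695 to 0.00793) and 0.266% (0.261 to 0.271) in the NS libraries, and 0.0272% and 0.0247% in the LPS libraries. The Eμ-deficient NS library had 0.0126% and the Eμ-deficient LPS library 0.0305%. In each genotype the LPS libraries thus lay above the first or only NS library and, where there was a second, far below it. These intervals cover counting error only, since PCR copies counted without molecular identifiers need not stem from different molecules.

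**Figure D1:**
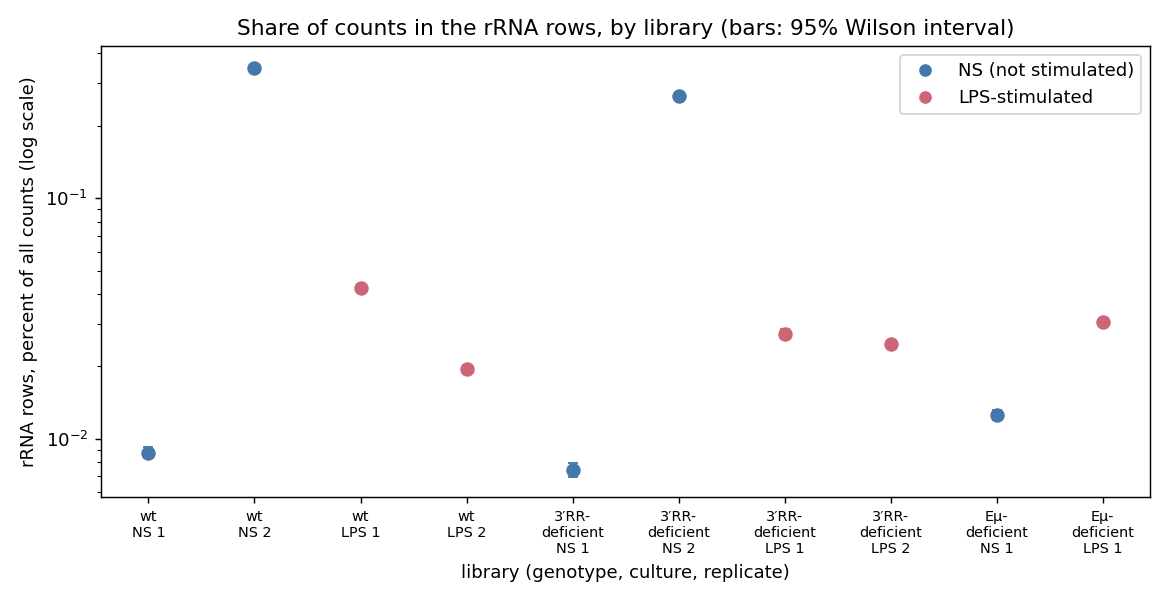
Each point is 1 library, with its rRNA share in percent of all counts on a log scale and its 95% Wilson interval; blue points are NS and red points LPS-stimulated libraries. The second NS libraries of wt (0.347%) and 3′RR-deficient cells (0.266%) lie above all others, and the remaining 8 libraries lie between 0.00743% and 0.0423%.

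The second NS library exceeded the first by 39.6 times in wt and by 35.8 times in 3′RR-deficient cells. No other RNA class moved as far between the same libraries. The ratios were 1.96 and 1.98 for tRNA rows, 2.66 and 2.01 for snoRNA rows, 2.81 and 2.43 for snRNA rows, and 3.92 and 3.08 for rows typed misc RNA, whereas the microRNA class took a smaller share (0.778 and 0.833). Between the 2 LPS libraries, the rRNA share differed by 0.460 times in wt and 0.907 times in 3′RR-deficient cells.

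The excess in the second NS libraries was spread over nearly the whole set of rRNA rows. Among 28 rRNA rows with at least 10 counts in each of the 4 wt and 3′RR-deficient LPS libraries, a filter that uses no NS library, 27 were at least 4-fold above the first NS library in both genotypes. The background was 8.38% of 2756 features so filtered, and the next class was misc RNA with 28 of 41. The median rRNA row was 33.2 times higher in wt and 25.9 times higher in 3′RR-deficient cells. The 1 exception was n-R5s209, at 4.14 and 2.07 times, and n-R5s162 followed with 15.1 and 14.6 times. The highest ratio in wt was 75.2 (n-R5s58) and the highest in 3′RR-deficient cells 66.3 (n-R5s194). In the text below, the main LPS results are therefore given with and without both second NS libraries, a setting chosen after seeing the data.

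A few rows carried most of the counts. The 5.8S row n-R5-8s1 on chromosome 18 held 30.7% of all rRNA counts, and the 5.8S-like Gm24601, which matched it in 73.0% of its bases, held 13.98%. The array rows together held 12.5% and the dispersed 5S rows 42.8%. It took 72 rows to reach 90% of the counts, 5 rows had no count in any library, and 98 had 1 to 9 counts over all 10.

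**Figure D2:**
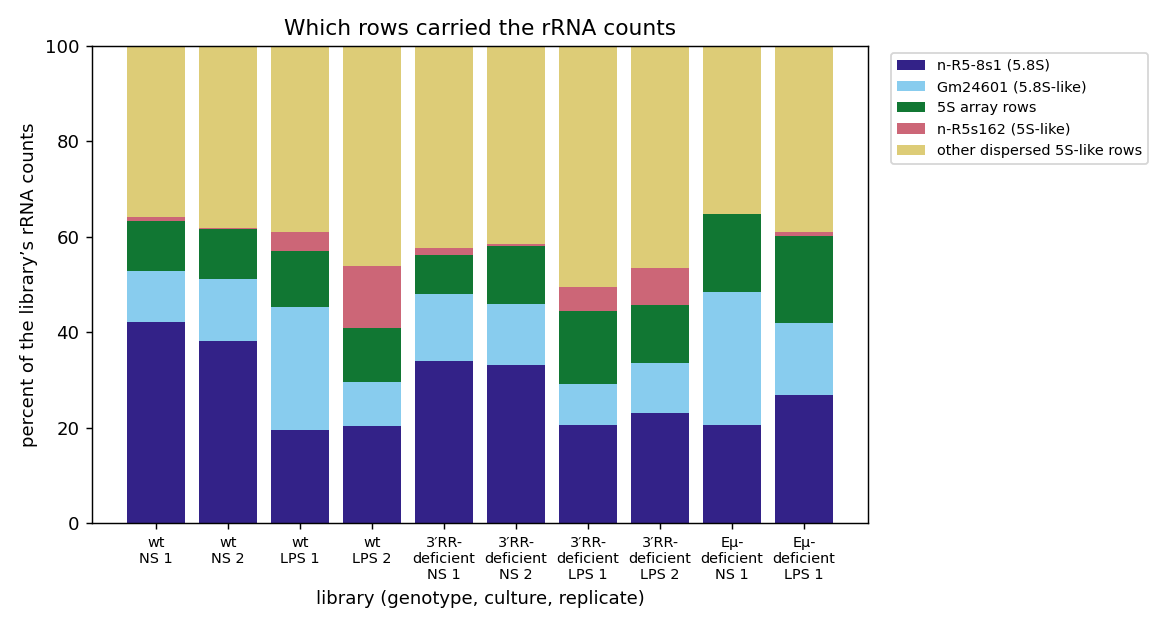
Stacked bars give, for each library, the percent of its rRNA counts in n-R5-8s1, Gm24601, the 44 rows of the 5S array, n-R5s162 and all other dispersed 5S rows. The sum of the 2 lowest segments, the 5.8S family, is smaller in the LPS than in the NS libraries of each genotype. The n-R5-8s1 segment alone is larger in the Eμ-deficient LPS library (26.9%) than in the Eμ-deficient NS library (20.6%). The Gm24601 segment alone is not smaller in every wt LPS library. The n-R5s162 segment is largest in the second wt LPS library at 12.9%.

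The dispersed 5S rows had more counts the closer they were to the array sequence. Their median count over the 10 libraries was 4 for the 94 rows matching under 70% of the array copy, 14 for 64 rows at 70 to 80%, 101.5 for 28 rows at 80 to 90%, and 443 for 17 rows at 90% or more. Rows of the array itself had between 87 and 135 counts, which was fewer than most dispersed rows of like sequence. Among the 28 identical array rows the counts ranged only from 114 to 127, and the variance over the mean was 0.0910, where independently counted rows would give about 1. The values of single array rows are therefore not separate measurements. How the counting treated reads with several matching places is not given in the sources used here, so values of dispersed rows close to the array are uncertain too.

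**Figure D3:**
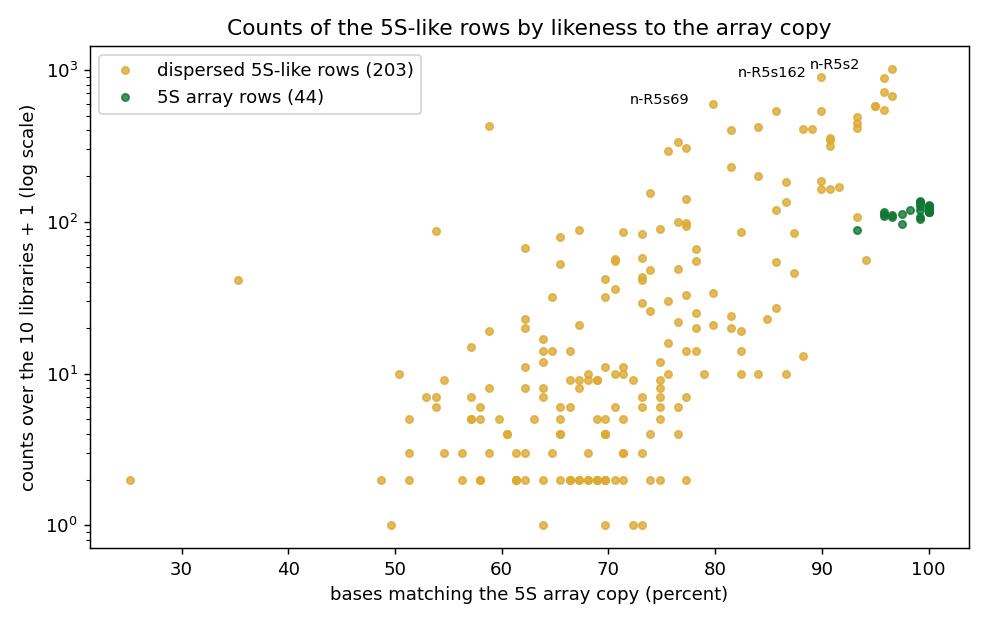
Each point is 1 of the 247 rows of the 5S family, with the percent of the array copy's bases that it matches on the x axis and its counts over the 10 libraries plus 1 on a log scale. Dispersed rows (yellow) reach 1015 counts (n-R5s2) at high likeness, and the 44 array rows (green) lie between 87 and 135.

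Ranked by their mean share of a library's rRNA counts, the 10 leading rows were n-R5-8s1 (27.9%), Gm24601 (14.8%), n-R5s162 (3.34%), n-R5s2 (2.46%), n-R5s151 (2.26%), n-R5s69 (1.73%), n-R5s33 (1.72%), n-R5s194 (1.54%), n-R5s71 (1.53%) and n-R5s209 (1.46%). The 5.8S rRNA pairs with the 28S rRNA in the large subunit, and no function is known for the dispersed 5S-like copies. Of these copies, n-R5s151 lies in an intron of Npas1 on the opposite strand and n-R5s69 in an intron of Galnt10 on the same strand. On the scale of CPM, the counts of a row per 1000000 counts of its library, n-R5-8s1 had 36.9 and 1324 in the wt NS libraries, 82.4 and 39.7 in the wt LPS libraries, 25.3 and 883 in 3′RR-deficient NS, 56.0 and 56.8 in 3′RR-deficient LPS, and 25.9 and 82.2 in the Eμ-deficient NS and LPS libraries. Its LPS libraries thus lay inside the range of the NS libraries in wt and 3′RR-deficient cells. Gm24601 had 9.42 and 451 CPM in wt NS, 109 and 17.96 in the wt LPS libraries, 10.4 and 336 in 3′RR-deficient NS, 23.3 and 26.3 in 3′RR-deficient LPS, and 35.0 and 46.0 in Eμ-deficient NS and LPS. It did not keep a fixed ratio to n-R5-8s1, which had 0.756 times its counts in the first wt LPS library and 0.740 times in the Eμ-deficient NS library, but between 1.79 and 3.92 times in the other 8.

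**Figure D4:**
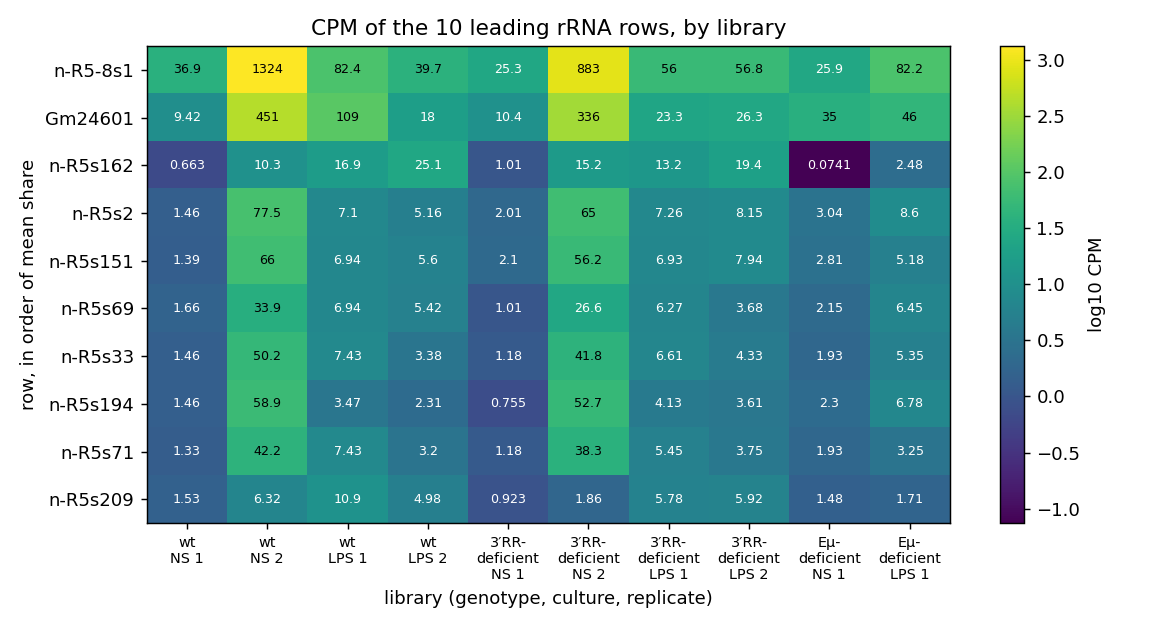
The grid gives the CPM of the 10 leading rows (vertical, in order of their mean share) in the 10 libraries (horizontal), coloured by log10 CPM. The second NS libraries of wt and 3′RR-deficient cells are the highest in 8 rows, the exceptions being n-R5s162 (highest in the second wt LPS library, 25.1 CPM) and n-R5s209 (highest in the first wt LPS library, 10.9 CPM).

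Whether LPS changed the rRNA share was asked over all 10 libraries with an exact permutation test, rearranging the cultures within each genotype. The log2 share differed by -0.43 (LPS minus NS), with a two-sided exact p of 0.722 over 72 rearrangements, where 0.0278 was the smallest possible. Without both second NS libraries the difference was 1.57, in the other direction, and 5 of 5 LPS libraries were above every remaining NS library. Since those 2 libraries were left out for their high rRNA share, this value is a description with no test. By family, the log2 share differed by -0.10 for 5S (exact permutation p = 0.972) and by -0.91 for 5.8S (exact permutation p = 0.528), both 0.972 when adjusted over these 2. Over the 10 libraries these differences were smaller than the spread between replicates, a pooled SD of 2.65 on the log2 scale for rRNA. A share is relative to all other counts of the library, so that a changed amount of rRNA fragments and a changed amount of other small RNA cannot be told apart.

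The make-up of the rRNA counts was steadier than their share. The 5.8S family held 52.9% and 51.2% of rRNA counts in the wt NS libraries, and 45.3% and 29.6% in the wt LPS libraries. It held 48.0% and 45.9% in 3′RR-deficient NS, and 29.1% and 33.6% in 3′RR-deficient LPS. In Eμ-deficient cells it held 48.4% in the NS and 42.0% in the LPS library. All 5 LPS libraries were below all 5 NS libraries, including both second NS libraries, whose 5.8S share was near that of the first. The log2 share of 5.8S in rRNA counts differed by -0.48 (exact permutation p = 0.0278 over 72 rearrangements, the smallest possible, two-sided), and by -0.49 without both second NS libraries (exact permutation p = 0.0556 over 18 rearrangements). The exact permutation p was also 0.0556, over 36 rearrangements, when the first wt NS, the second wt NS or the Eμ-deficient NS library alone was left out, with differences of -0.45, -0.46 and -0.48. This share was not the main measure planned for the families, and its p-values are unadjusted. The main measure, the share of all counts, gave an exact permutation p of 0.528 for 5.8S. For n-R5-8s1 alone, the share missed the threshold over the 10 libraries (difference -0.58, exact permutation p = 0.0556), and without both second NS libraries the difference was -0.495 (exact permutation p = 0.111). Its share of rRNA counts was 42.1% and 38.2% in wt NS, 34.01% and 33.2% in 3′RR-deficient NS, and between 19.5% and 23.0% in the 4 LPS libraries of both genotypes. The Eμ-deficient libraries did not follow, with 20.6% in NS and 26.9% in LPS.

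Of the dispersed 5S copies, n-R5s162 stood out by its share of rRNA counts. It had 10 and 36 counts in wt NS, 102 and 282 in the wt LPS libraries, 12 and 57 in 3′RR-deficient NS, 80 and 269 in 3′RR-deficient LPS, and 1 and 45 in Eμ-deficient NS and LPS. These were 0.758% and 0.298% of rRNA counts in wt NS, against 3.98% and 12.9% in wt LPS. In 3′RR-deficient cells they were 1.36% and 0.571% in NS, against 4.85% and 7.86% in LPS. Within each genotype the LPS libraries were above the NS libraries, and the Eμ-deficient LPS library (0.812%, against 0.0588% in NS) was within the range of the wt and 3′RR-deficient NS libraries. The row ranked among the 10 leading rows by its mean share over all libraries, those with LPS, where it was high, included. Tests of that share are thus no support for a direction. The log2 share of n-R5s162 in rRNA counts differed by 3.31 (exact permutation p = 0.0278, the smallest possible, and 0.139 adjusted over the 10 leading rows), and by 3.25 without both second NS libraries (exact permutation p = 0.0556, the smallest possible there). With either 3′RR-deficient LPS library or the Eμ-deficient NS library alone left out, the exact permutation p was also 0.0556, at differences of 2.72 to 3.27. Among these 10, n-R5s33 had the same p with a difference of only 0.25 (0.21 without both second NS libraries, exact permutation p = 0.167, and -0.08 as a share of 5S counts, exact permutation p = 0.556), and the other 8 had p-values of 0.0556 or above.
The row n-R5s209 had 23 and 22 counts in wt NS, 66 and 56 in the wt LPS libraries, 11 and 7 in 3′RR-deficient NS, 35 and 82 in 3′RR-deficient LPS, and 20 and 31 in Eμ-deficient NS and LPS. Its share of rRNA counts was 1.74% and 0.182% in wt NS and 1.24% and 0.0701% in 3′RR-deficient NS, below the 2.12% to 2.58% of their LPS libraries, but it was 1.18% in NS and 0.560% in LPS in Eμ-deficient cells. Over the 8 wt and 3′RR-deficient libraries, 10 of 81 rRNA rows with at least 100 counts had shares of rRNA counts that did not overlap between LPS and NS, 7 of them higher and 3 lower with LPS. Of all 3708 features with at least 100 counts, 18.4% did not overlap as shares of the counts of their own class, so the rRNA rows, at 12.3%, were not above the background. The 7 included 2 rows of the array (n-R5s112 and n-R5s102), and outside the array the count was 8 of 39. In CPM, 0 of the 81 rRNA rows were without overlap, against 17.6% of all features. With both second NS libraries left out, 78 of the 81 were higher with LPS in CPM without overlap and 0 lower, where 55.4% of all features did not overlap. As shares of class counts 32 of the 81 did not overlap, where the background was 40.3%. Outside the array these were 36 of 39 in CPM and 10 of 39 as shares. Those libraries were left out for their high rRNA share, so these counts are a description with no test.

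The fit across all features called no rRNA row between LPS and NS, a count that changed with the processing. It was 28 of 128 without the first wt NS library (7.44% of all features), 95 of 240 without the filter on low counts (11.0%) and 19 of 128 with the replicate block within condition (24.6%). The fit used edgeR's quasi-likelihood test with TMM scaling, fitted on 3987 features of the 8 wt and 3′RR-deficient libraries, of which 128 were rRNA rows that passed the filter on low counts, and a call is an adjusted p under 0.05. With genotype as a term, 180 features (4.51%) and 0 of the 128 rRNA rows were called. An unadjusted p under 0.05 was reached by 66 of the 128 rRNA rows, 62 of them with lower and 4 with higher values in LPS, and by 947 of all 3987 features (23.75%). DESeq2 called 20 rRNA rows, 18 lower and 2 higher, where it called 14.2% of all features. The median log2 fold change was -2.27 over the 128 rRNA rows and -0.05 over all features, and 122 of the 128 were negative. The filter had a part in these counts, as 47 of the 128 rows did not pass it without both second NS libraries. All 47 were lower with LPS, and 39 of them had an unadjusted p under 0.05, against 75 lower and 27 under 0.05 among the other 81. The counts over the 128 rows are thus no support for a direction. In wt alone 0 of 3987 features were called (0%), with 5 rRNA rows and 11.36% of all features under an unadjusted p of 0.05, and DESeq2 called 0 rRNA rows and 3.09% of all features. In 3′RR-deficient cells alone 0 of 3987 were called (0%), with 3 rRNA rows and 10.41% of all features under an unadjusted p of 0.05, and DESeq2 called 0 rRNA rows and 2.83% of all features.

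Without both second NS libraries the direction of nearly all rRNA rows turned. In this fit of 6 libraries 275 of 4051 features were called (6.79%), and 1 of 82 rRNA rows, n-R5s162. It was higher with LPS by 3.48 on the log2 scale (SE 0.49). The second NS libraries were left out for their high rRNA share, so for rRNA rows this setting is a description with no test. In wt alone this setting called 10 features (0.247%) and in 3′RR-deficient cells alone 0 (0%), with 3 and 2 rRNA rows under an unadjusted p of 0.05 (11.26% and 13.21% of all features) and no rRNA row called by edgeR in either. Over both genotypes, 80 of the 82 rRNA rows were positive, with a median of 1.11 against 0.15 over all features. These rows, and those counted next, included many array rows, which are not separate measurements. Of the 81 rows in both fits, 73 were lower with LPS in the fit of 8 libraries and higher in the fit of 6, 6 were higher in both, and 2 were lower in both. The 6 were n-R5s162, n-R5s209, n-R5s67, n-R5s60, Gm25625 and Gm24991, and the 2 were n-R5-8s1 and n-R5s15. These lists were read off after the values were seen.

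**Figure D5:**
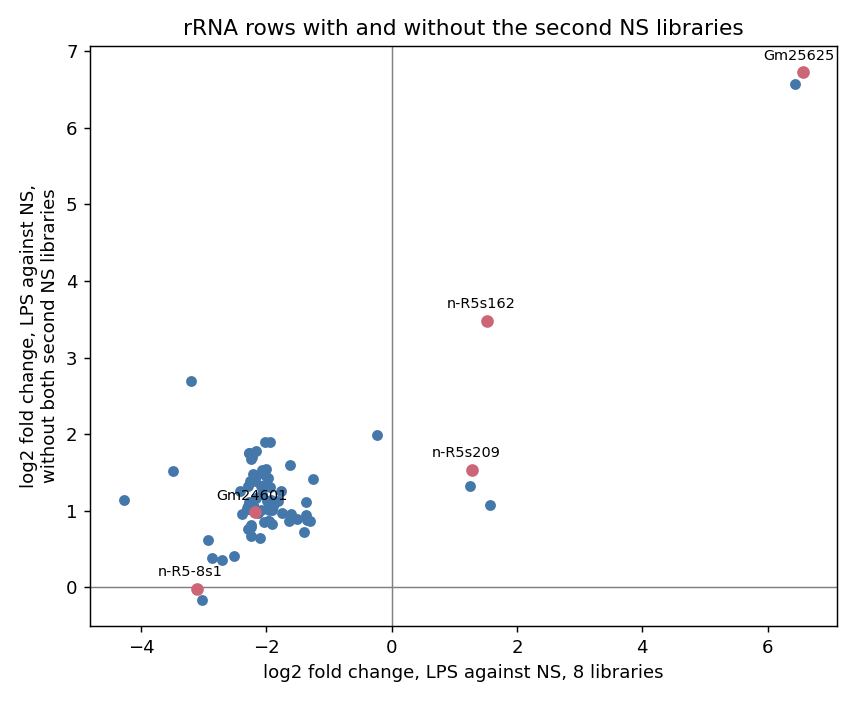
Each point is 1 of the 81 rRNA rows in both fits, with its log2 fold change (LPS against NS) over 8 wt and 3′RR-deficient libraries on the x axis and without both second NS libraries on the y axis. Most points lie near -2 on the x axis and near 1 on the y axis, whereas n-R5s162 and n-R5s209 lie above 0 on both.

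In CPM, n-R5s162 had 0.663 and 10.3 in wt NS, 16.9 and 25.1 in the wt LPS libraries, 1.007 and 15.2 in 3′RR-deficient NS, and 13.2 and 19.4 in 3′RR-deficient LPS. Its LPS libraries were above both NS libraries in wt, whereas in 3′RR-deficient cells the first LPS library was below the second NS library. The fit of 8 libraries gave 1.51 on the log2 scale (SE 0.66, adjusted p = 0.200), which was not a call, and the value stayed positive without each of the 8 libraries in turn (1.09 to 2.37). By the same quasi-likelihood test it was a call with the replicate block within condition (2.05, SE 0.33, adjusted p = 0.000835). It was also a call without the filter on low counts (1.65, SE 0.48, adjusted p = 0.00992). These settings called 24.6% and 11.0% of all features.
The rRNA row with the smallest p was Gm25625, which lies outside other genes on chromosome 6 and matched 53.8% of the array copy. It had 0 counts in all 4 wt and 3′RR-deficient NS libraries, 15 and 6 in the wt LPS libraries, 7 and 28 in the 3′RR-deficient LPS libraries, and 2 and 28 in Eμ-deficient NS and LPS. Summed over the 4 LPS libraries it had 56 counts, at least 17.2-fold above the floor of 3 counts over the 4 NS libraries, with an adjusted p of 0.0583 by edgeR's quasi-likelihood test, and 0.0678 without both second NS libraries. With 0 counts in NS, this row and Gm24991 passed the filter only through the LPS libraries in which they were high, so their p-values are no support for a direction. The row Gm24991, likewise at 0 in those NS libraries, had 21 and 1 counts in the wt LPS libraries, 9 and 4 in the 3′RR-deficient LPS libraries, and 0 and 6 in Eμ-deficient NS and LPS (adjusted p = 0.138 by edgeR's quasi-likelihood test, and 0.191 without both second NS libraries). It overlaps an exon of the histone gene Hist1h2ac on the same strand, so that fragments of the histone mRNA and of a 5S-like transcript cannot be told apart there. The second smallest p belonged to n-R5s15, at -3.04 on the log2 scale (SE 0.91, adjusted p = 0.0831), which came to -0.16 without both second NS libraries.

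Markers of other cells moved with the same contrast. Of the microRNAs listed for red cells, 2 of 5 were lower with LPS past the threshold, miR-486a-5p and miR-486b-5p, whose nearly equal values make them 1 measurement, as were 2 of 2 for myeloid cells and 2 of 4 for endothelium and stroma, 0 of 1 for liver, and of 4 listed for B-cells miR-150-5p was lower and miR-155-5p higher, where 4.51% of all features were called. The summed level of the red cell list was 2929 to 11570 CPM in the wt and 3′RR-deficient NS libraries and 125 to 1139 CPM in their LPS libraries, that of the myeloid list 413 to 1175 and 48.6 to 116 CPM, and that of the stromal list 136 to 622 and 50.5 to 88.9 CPM. The liver list, miR-122-5p, did not exceed 5.06 CPM and was at 0 in 3 libraries, and miR-145a-5p of the stromal list was at 0 in both 3′RR-deficient LPS libraries. The members of the red cell list moved in opposite directions between the first and the second NS library. In wt miR-451a went from 2198 to 177 CPM and miR-144-5p from 468 to 25.8 CPM, whereas miR-486a-5p went from 497 to 1976 CPM. In 3′RR-deficient cells miR-451a went from 1114 to 330 CPM and miR-486a-5p from 685 to 5576 CPM. Of the B-cell list, miR-142a-5p went from 104900 to 6344 CPM in wt and from 53960 to 5567 CPM in 3′RR-deficient cells, while miR-150-5p went from 23560 to 48570 and from 30410 to 46340 CPM. The Eμ-deficient NS and LPS libraries had 9034 and 3221 CPM for the red cell list, 3598 and 323 CPM for the myeloid list and 388 and 534 CPM for the stromal list. All 3 sums in the Eμ-deficient LPS library were above those of the 4 other LPS libraries, and its stromal sum was above that of its NS library. That rise came from miR-143-3p alone, with 313 CPM in NS and 508 in LPS. The other members were lower in LPS, miR-126a-3p (45.1 and 8.65 CPM), miR-126a-5p (11.55 and 4.46) and miR-145a-5p (18.4 and 12.7). The part of these cells in the rRNA values was not tested, and in such bulk samples fewer cells of a type and less RNA per cell cannot be told apart.

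Between 3′RR-deficient and wt cells no rRNA row was called. The log2 share of rRNA counts differed by -0.23 (3′RR-deficient minus wt), with an exact permutation p of 0.667 over 36 rearrangements within culture, where 0.0556 was the smallest possible. The edgeR quasi-likelihood test called 0 of 3987 features in NS (0%), 0 in LPS (0%), and 1 over both cultures (0.0251%), which was no rRNA row. An unadjusted p under 0.05 was reached by 0, 0 and 1 of the 128 rRNA rows, against 1.48%, 1.38% and 2.13% of all features. DESeq2 called 0 rRNA rows in each, and 0.0502%, 0.0502% and 0.201% of all features. The median rRNA log2 fold change was -0.17 in NS, 0.01 in LPS and -0.06 over both, near -0.06, 0.00 and -0.03 over all features. The rRNA share was lower in the 3′RR-deficient library of the same number by 0.848 and 0.766 times in NS, and differed by 0.644 and 1.27 times in LPS.
The smallest p belonged to n-R5s67, a 5S-like row in an intron of Tmed4 on the opposite strand. It had 8 and 4 counts in wt NS and 1 and 1 in 3′RR-deficient NS, 13 and 25 in the wt LPS libraries and 4 and 9 in 3′RR-deficient LPS. In CPM the wt libraries had 0.531 and 1.15 in NS and 2.15 and 2.22 in LPS, and the 3′RR-deficient libraries 0.0839 and 0.266 in NS and 0.660 and 0.649 in LPS, without overlap in either culture. The log2 fold change over both cultures was -1.84 (SE 0.66, unadjusted p = 0.0189, adjusted p = 0.999 by edgeR's quasi-likelihood test), which was not a call among 3987 features. The interaction of LPS and 3′RR genotype was called for 0 of 3987 features (0%), with 0 rRNA rows and 0.978% of all features under an unadjusted p of 0.05 and 0 called by DESeq2, and its leading rRNA row, n-R5s98, had at most 11 counts in a library.

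The Eμ-deficient libraries were compared with wt over both cultures in a fit of all 10 libraries, which takes the spread from the other groups since there was 1 library each. Of 4554 features 156 were called (3.43%), and 0 of the 133 rRNA rows by edgeR's quasi-likelihood test, with 2 rRNA rows and 14.34% of all features under an unadjusted p of 0.05 and 1 rRNA row called by DESeq2. That row and the one with the smallest p was n-R5s162, at -3.40 on the log2 scale (SE 0.96, adjusted p = 0.0872). It had 0.0741 CPM in the Eμ-deficient NS library against 0.663 and 10.3 in wt NS, and 2.48 CPM in the Eμ-deficient LPS library against 16.9 and 25.1 in wt LPS. In NS this rests on 1 count, a ratio of 0.112 to the first wt library with a 95% counting interval of 0.00257 to 0.785. In LPS the ratios to the wt libraries were 0.147 (0.101 to 0.211) and 0.0989 (0.0705 to 0.136). Without both second NS libraries, 327 of 4423 features were called (7.39%), and n-R5s162 was the 1 rRNA row of 92 among them, at -3.01 (SE 0.54). As those libraries were left out for their high rRNA share, this value is a description with no test. Within the Eμ-deficient libraries the array rows held 31.7% of 5S counts in NS and 31.2% in LPS, above the 15.9% to 22.4% of the 8 other libraries, a difference that was not tested. Each of the 28 identical array rows had only 5 to 9 counts in Eμ-deficient NS and 1 to 2 in the first 3′RR-deficient NS library. As these rows are not separate measurements, the shares may rest on few reads.

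The RNAs that process rRNA were examined beside it. The list comprised U14 (Snord14), U13 (Snord13) and U17 (Snora73), which act in 18S rRNA maturation, U8 (Snord118), which is needed for 5.8S and 28S rRNA maturation, and the RNA of RNase MRP (Rmrp), which cuts the precursor before the 5.8S rRNA. U3 and U22 were not analysed here. Of the 9 rows measured, 3 were higher and 0 lower with LPS over both genotypes by edgeR's quasi-likelihood test, where 4.51% of all features were called. These were Snord14c (2.66, SE 0.64, adjusted p = 0.0478), Snord14d (2.65, SE 0.64, adjusted p = 0.0480) and Snord14e (1.69, SE 0.37, adjusted p = 0.0373). Snord14c and Snord14d had near-equal counts (10518 and 10445 in the first wt NS library), so they are taken as 1 measurement. Leaving out any 1 of the 8 libraries other than the first wt NS library left 0 of the 9 called. Snord14e had 38.5 and 64.9 CPM in wt NS, 123 and 182 in the wt LPS libraries, 20.1 and 44.5 in 3′RR-deficient NS, and 167 and 224 in 3′RR-deficient LPS. Its LPS libraries lay above the NS libraries in both genotypes, and the Eμ-deficient libraries had 39.8 and 271 CPM. Without both second NS libraries the calls were Snord14a, higher, and Rmrp, lower (-2.03, SE 0.45, adjusted p = 0.0302), whereas Snord14e had 1.597 with an adjusted p of 0.0590. The U8 row Snord118 had 660 and 1365 CPM in wt NS and 908 and 884 in wt LPS, and its log2 fold change with LPS was -0.01 (SE 0.51).
Rmrp was higher in the Eμ-deficient than in the wt libraries by 3.30 on the log2 scale (SE 0.50, adjusted p = 0.00325 by edgeR's quasi-likelihood test). It had 3456 and 1742 CPM in Eμ-deficient NS and LPS, 335 and 829 in wt NS, 243 and 120 in wt LPS, and 399 to 496 in 3′RR-deficient NS. Both Eμ-deficient libraries lay above all 8 others, and Rmrp was not called without the Eμ-deficient NS library. The myeloid marker sum was also higher in both Eμ-deficient libraries than in the wt libraries of the same culture (3598 against 413 to 1175 CPM in NS, and 323 against 48.6 to 116 CPM in LPS), and its part in the Rmrp values was not tested. No row of the list was called for the 3′RR genotype in NS, in LPS or over both.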

How the data were processed

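Small RNA was sequenced in 10 libraries, and the deposited table holds raw read counts per annotated feature. Per the labels, 1 µg of total RNA was amplified in 17 PCR cycles with a NextFlex kit and sequenced with 75 nt reads. The submitters' processing notes name cutadapt 1.2.1, Bowtie2 and mm10; the counting program, strand use and treatment of reads with several matches are not given in the sources used here. Rows with no count in a fitted set and low rows were removed by filterByExpr.

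The members and lists were chosen with earlier results of these data known. Counts were fitted with edgeR 4.0.16 (TMM, quasi-likelihood F-test, Benjamini-Hochberg over all features tested) in R 4.3.3, with DESeq2 1.42.0 as an alternative, after a test on simulated data. The wt and 3′RR-deficient groups were fitted together. Shares of counts were compared by exact permutation within genotype or culture, two-sided. Named rows were the 10 with the largest mean share of rRNA counts, any called row of at least 10 CPM without overlap of groups (there was none), and otherwise the 2 with the smallest p in a comparison; rows n-R5s33, n-R5s60 and Gm24991 and the lists of rows with and without both second NS libraries follow their values. Positions and the printed sequence came from GENCODE M21, and the sequences of the 5S rows are not reported here. Rows of the 5S and 5.8S families were told apart by local alignment.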

Additional observations from a re-analysis of the deposited data

Results flagged for a closer look

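A few shares of rRNA counts moved with LPS in one direction in the Eμ-deficient pair of libraries and in the opposite direction in every library of another genotype. These differences were not tested, and the Eμ-deficient direction rests on 1 library in each culture. The share of n-R5-8s1 was higher with LPS by 6.36 percentage points in Eμ-deficient cells and lower in all wt and 3′RR-deficient LPS libraries. The share of n-R5s194 was higher by 0.400 percentage points in Eμ-deficient cells and lower in wt. The share of n-R5s71 differed by -0.463 percentage points in Eμ-deficient cells and was higher in wt. The share of n-R5s209 differed by -0.615 percentage points in Eμ-deficient cells and was higher in all wt and 3′RR-deficient LPS libraries.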

How the results depend on the processing

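The counts of called rRNA rows depended on the processing only for LPS and for the Eμ-deficient libraries, and in no setting was an rRNA row called for the 3′RR genotype or its interaction with LPS. For LPS over both genotypes, where 0 rows were called, 1 row, Gm25625, was called under total count scaling (8.53% of all features), under TMM on the microRNA class (12.6%), under the total count without rRNA rows (8.43%) and with all 10 libraries (8.21%), and 1 without both second NS libraries (n-R5s162, 6.79%). Without a filter on low counts 95 of 240 rRNA rows were called (11.0% of all 6531 features), and with DESeq2 20 of 128 (14.2% of all features). Leaving out 1 library at a time gave 0 to 28 rows, with 28 of 128 without the first wt NS library (7.44% of all features). In wt alone 23 and in 3′RR-deficient cells alone 24 of 240 rows were called without a filter (2.69% and 2.54% of all features). For the Eμ-deficient libraries 2 rows were called without a filter (4.23% of all features), 1 with DESeq2 (5.31%) and 1 without both second NS libraries (7.39%), and 0 to 1 when 1 library was left out, with 1 without the first wt NS or the second 3′RR-deficient NS library. The setting without both second NS libraries was chosen on rRNA values, so its rRNA calls are a description with no test. The cause of these changes was not tested. Scaling moved the median of all features for LPS from -0.05 to 0.35 under total count scaling and to 0.57 under TMM on the microRNA class.

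Replicate differences of same-numbered libraries correlated at 0.67 between the NS groups and 0.33 between the LPS groups of both genotypes, but from -0.21 to -0.02 between NS and LPS groups, over 3987 features. The labels give no meaning to the numbers, and they were not taken to pair samples across cultures. With the replicate block 1 rRNA row was called for LPS over both genotypes (n-R5s159, lower), and 7.35% of all features. With the replicate block within condition 19 rRNA rows were called for LPS over both genotypes (24.6% of all features), 6 within wt (7.45%), 1 within the 3′RR-deficient libraries (6.67%) and 1 for the Eμ-deficient libraries (8.48%). Of the 9 processing RNAs 7, 3, 5 and 2 were called in these comparisons, of which 3, 1, 1 and 0 were lower. For LPS over both genotypes, 3 were higher and 1 lower with the replicate block (7.35% of all features) and with DESeq2 size factors (5.24%).

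Of the processing RNAs, 5 were called for LPS over both genotypes under TMM on the microRNA class, without a filter, with at least 10 CPM in at least 2 libraries (15.4% of all features), with DESeq2 and with all 10 libraries, with the shares of all features in the other settings as given above, 4 of the 5 higher and 1 lower in each, against 3 higher as reported, and 0 to 3 when 1 library was left out. In 3′RR-deficient cells 2 were called under TMM on the microRNA class (0.376% of all features), 2 without a filter (2.54%) and 4 with DESeq2 (2.83%). For the Eμ-deficient libraries 2 were called without a filter (4.23%), 2 with DESeq2 (5.31%) and 2 without both second NS libraries (7.39%), and 0 to 1 when 1 library was left out, with 0 (Rmrp no longer called) without the Eμ-deficient NS library.

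Without both second NS libraries the log2 share difference with LPS was 1.575 for rRNA, 1.92 for 5S, 1.084 for 5.8S and -0.492 for 5.8S within rRNA counts. Over all 10 libraries the difference as a share of rRNA counts was 0.331 for 5S and -0.477 for 5.8S. Leaving out 1 library gave -1.018 to 0.369 for the rRNA share with LPS and -1.218 to 0.813 for the rRNA share by 3′RR genotype. By family the LPS difference was -0.678 to 0.686 for 5S and -1.504 to -0.094 for 5.8S. Within rRNA counts it was -0.567 to -0.407 for 5.8S (no longer past the threshold without the first or second wt NS or the Eμ-deficient NS library) and -0.473 to 0.012 for Gm24601. With 5S counts as the denominator the difference turned to -0.158 for n-R5s2, -0.196 for n-R5s151, -0.078 for n-R5s33 and -0.23 for n-R5s71. Without both second NS libraries the log2 fold change with LPS turned to 1.116 for n-R5s69, 1.011 for n-R5s151, 1.013 for n-R5s71, 1.075 for n-R5s33, 1.021 for n-R5s2, 0.616 for n-R5s194 and 0.98 for Gm24601. The interaction of n-R5s168 ranged from -5.664 to 4.652 when 1 library was left out.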
